A study of Mus musculus with 15 samples.

Results

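The Nr4a and Egr genes encode transcription factors that cells switch on within minutes to hours of a stimulus. Genes of these families and their corepressors, 8 in all, were followed in the mouse auditory nerve after loud noise. The genes were the nuclear receptors Nr4a1, Nr4a2 and Nr4a3, the zinc finger factors Egr1, Egr3 and Egr4, and the Egr corepressors Nab1 and Nab2. They were chosen by symbol, as every probe set that the platform annotation pairs with one of these names, which gave 18 of 34945 probe sets with a single gene and 8 of 18193 genes. All 8 genes had a probe set above the filter on dim genes, so all 8 were tested. The remaining Egr gene, Egr2, was read beside them.

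Affymetrix arrays had been hybridised with RNA of 15 CBA/CaJ mice aged 5 to 12 weeks, 3 in each of 5 groups: unexposed controls, and mice taken immediately, 1 day, 7 days or 14 days after a 2-hour octave band of noise at 8 to 16 kHz and 106 dB SPL. Each array carried the nerve tissue of 1 mouse, left and right cochlea together, so the arrays of a group were separate animals. The dissection kept the modiolus, the bony core that houses the nerve, and other cells of that core stayed in the sample. The 3 controls were female and the 3 mice at 1 day were male, while the immediate, 7-day and 14-day groups each held 2 females and 1 male. Between the controls and the mice at 1 day, sex and time cannot be told apart from their own values. A term for sex takes the sex difference from the mixed groups and assumes that it is the same in every group. In such bulk tissue, fewer cells of a type and less RNA per cell cannot be told apart.

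Nr4a proteins are nuclear receptors that act without a classical hormone ligand. They bind DNA alone at a site called NBRE, and Nr4a1 and Nr4a2 also bind as dimers with retinoid X receptors. Their genes, like Egr1, are immediate early genes: calcium, cyclic AMP and growth factor signals reach their promoters through CREB, bound to cyclic AMP response elements (CRE), and through serum response factor, bound to CArG boxes. Egr proteins bind GC-rich sites, and Nab1 and Nab2 attach to Egr1, Egr2 and Egr3 and restrain or redirect them. In peripheral nerve, Egr2 with the Nab proteins directs the myelin program of Schwann cells, and Egr1 is linked to immature and injured Schwann cells.

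Promoter sequence was read for 6 of the 8 genes from RefSeq (assembly GRCm38.p6), as 250 bases before and 50 bases from the start of transcription; Egr1 and Egr3 were not matched. The CRE half-site searched was TGACG on either strand, and a full CRE, TGACGTCA, holds a half-site on each strand. The stretches below are shown because the 3 Nr4a genes, the genes that rose after noise, each held 4 half-sites, and their half-sites stand in capitals. They run 5′ to 3′ on the strand of the gene.
Nr4a1, chr15:101266609-101266638, plus strand: cctgCGTCAatggaaccccgcgtgCGTCAc
Nr4a1, chr15:101266775-101266804, plus strand: tgCGTCAgtggCGCCCCCGCccctctccat
Nr4a2, chr2:57124109-57124208, minus strand: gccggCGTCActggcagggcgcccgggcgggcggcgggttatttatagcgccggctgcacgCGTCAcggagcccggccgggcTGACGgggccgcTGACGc
Nr4a3, chr4:48045087-48045108, plus strand: catgtCGTCAcatTGACGtctc
Nr4a3, chr4:48045150-48045171, plus strand: ggcataaaTGACGtgccgagag
In the second stretch of Nr4a1 the longer run of capitals is a match to the Egr site, searched as GCGTGGGCG or GCGGGGGCG on either strand. The first half-site of Nr4a3, and the one of Nr4a1 nearest to the start, lie outside these stretches. Of 32851 promoters of the same length, 20.8% held at least 1 half-site, 5.01% at least 2 and 0.231% at least 4, so the Nr4a genes lay in a small fraction of promoters by this count. A full CRE was found in 1.79% of promoters and in none of these 6.

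Egr4 held 2 half-sites, Nab1 held 1 and Nab2 none. The stretches of Egr4, with its half-sites in capitals, of Nab1, with Egr sites in capitals, and of Egr2, with a CArG box in capitals, are given for comparison. Egr2 had several RefSeq starts, and its stretch comes from the window of 1 of them. That window also held 2 half-sites, both outside the stretch, while the window of another start held neither motif.
Egr4, chr6:85513692-85513771, minus strand: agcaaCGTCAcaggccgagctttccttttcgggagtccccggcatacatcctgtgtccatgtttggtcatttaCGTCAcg
Nab1, chr1:52500546-52500592, minus strand: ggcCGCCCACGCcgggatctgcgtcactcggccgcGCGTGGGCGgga
Egr2, chr10:67537782-67537811, plus strand: gccctgttcctcagtCCATATATGGgcagc
Egr site matches numbered 3 in the promoter of Nab1, one of them outside the stretch shown, and 1 in that of Nr4a1. At least 1 such match was present in 3.47% of all promoters and at least 3 in 0.0365%. The CArG box was found in 1.63% of promoters and in none of the 6, and the NBRE, AAAGGTCA, in 1.51% and in none of the 6. The promoters of Nr4a1, Nr4a2, Nr4a3, Egr4, Nab1 and Nab2 were 72.3, 81.7, 64.7, 67.7, 81.7 and 74% G and C, against a median of 52.7% over all promoters, and the shares above were not matched for base composition. A match is a run of letters, not a shown binding site, and whether half-site number bears on the rise after noise was not tested.

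**Figure D1:**
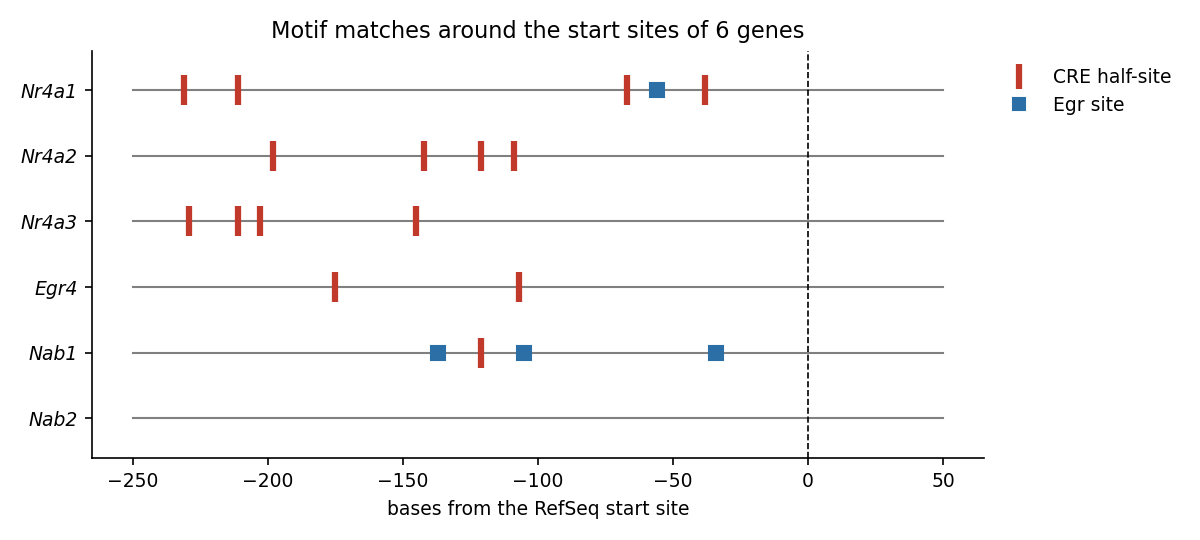
Matches to the CRE half-site (red ticks) and to the Egr site (blue squares) in the promoters of 6 genes, by distance in bases from the RefSeq start site (dashed line). Each Nr4a promoter holds 4 half-sites, Egr4 holds 2, Nab1 holds 1 half-site and 3 Egr sites, and the window of Nab2 holds neither motif.

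Values are log2 intensities of 1 probe set per gene, the brightest on average, and a difference of 1 on this scale is a doubling. Array medians lay between 5.87 and 5.92. Markers of the labelled tissue were present: the 8 neuronal genes averaged from 5.84 (Prph) to 13.43 (Snap25), and the 5 Schwann cell genes measured from 8.79 (Drp2) to 13.28 (Pmp22). Genes of other cells were present too. Of 6 hair cell genes, Slc26a5 (3.81) lay under the filter level of 4.70 and the other 5 above it, up to 8.95 for Myo6. Of 4 muscle genes, Myh4 (2.99) and Acta1 (3.76) lay under it and Ckm (5.55) and Ttn (6.19) above it, while Dmp1, a gene of bone cells, averaged 11.22. A gene was called where limma gave a Benjamini-Hochberg adjusted p under 0.05 over the 13644 genes tested.

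Immediately after noise, 3 of the 8 genes rose and none fell, and the 3 were the Nr4a receptors. Over all genes tested 0.931% were called in either direction and 0.579% as higher. The median difference of the 8 genes was 0.49, against -0.02 over all genes tested. For 5 of the 8 genes, Nr4a1, Nr4a2, Nr4a3, Egr1 and Nab1, every mouse of the immediate group lay above every control, which held for 8.86% of all genes tested. Each of these 5 had an unadjusted p under 0.05. The share of all genes at that level is not given, here or below. Low values were common: immediately after noise, 710 of the 13644 genes tested had a limma p no higher than that of Egr2 (0.00846). A test for any difference among the 5 groups (limma's moderated F) called the same 3 Nr4a genes, with adjusted p of 0.000449 for Nr4a1, 0.00297 for Nr4a3 and 0.00778 for Nr4a2, and no other of the 8, where 6.75% of all genes were called.

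**Figure D2:**
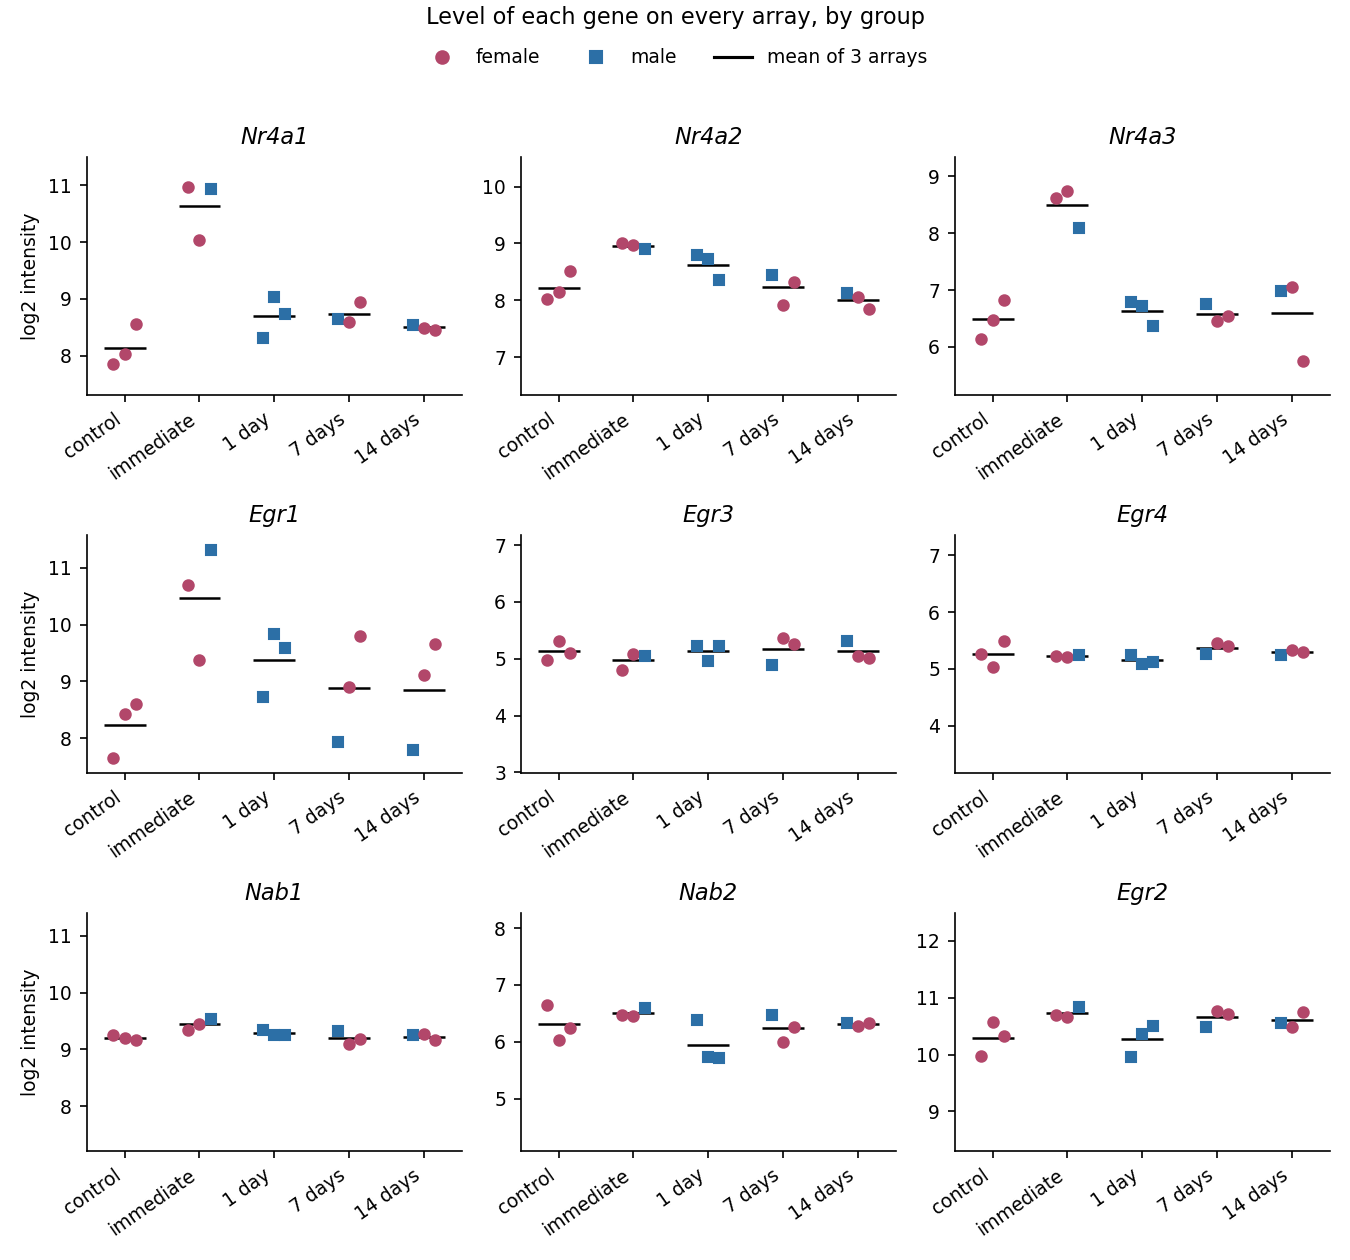
Log2 intensity on every array for the 8 genes and Egr2, by group, with females as circles, males as squares and the mean of 3 arrays as a bar; each panel has its own vertical range. The immediate arrays of Nr4a1 (10.03 to 10.96) and Nr4a3 (8.10 to 8.75) stand clear of all others. Those of Egr1 spread from 9.37 to 11.32. Egr3, by its brighter probe set, and Egr4 stay between 4.80 and 5.49.

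Nr4a1, also known as Nur77, read 7.85, 8.03 and 8.55 in the controls and 10.96, 10.03 and 10.93 in the mice taken immediately after noise. It read 8.31, 9.04 and 8.74 at 1 day, 8.64, 8.59 and 8.95 at 7 days, and 8.54, 8.49 and 8.46 at 14 days. Each immediate array lay above every array of the other 4 groups. The immediate mean of 10.64 ± 0.53 exceeded the control mean of 8.14 ± 0.36 (SD, n = 3) by 2.50 ± 0.23 (SE; 95% confidence interval 2.00 to 3.00), a 5.64-fold rise (limma adjusted p = 0.000125). It ranked 3 by size of rise and 2 by p among the 13644 genes. In females alone Nr4a1 was the only one of the 8 still called (2.35, adjusted p = 0.0307). In order of their means the other groups were 7 days, 1 day, 14 days and control, and each neighbour in that order overlapped the next.

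The later means of Nr4a1 also lay above the control mean, without passing the test. All 3 mice at 7 days lay above all controls, with a difference of 0.58 ± 0.23 (interval 0.08 to 1.08; adjusted p = 0.381). The differences from control were 0.55 ± 0.23 at 1 day (adjusted p = 0.225) and 0.35 ± 0.23 at 14 days (adjusted p = 0.755), where the groups overlapped. The 3 arrays at 14 days were the tightest of any group, with an SD of 0.04.

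Nr4a3, also called NOR1, is induced by many of the same signals as Nr4a1. It read 6.14, 6.48 and 6.83 in controls and 8.62, 8.75 and 8.10 immediately after noise. At 1 day it read 6.79, 6.72 and 6.36, at 7 days 6.76, 6.45 and 6.54, and at 14 days 6.99, 7.06 and 5.75. The immediate arrays again stood above all others, and the 4 remaining groups overlapped one another. The rise was 2.01 ± 0.28 (interval 1.40 to 2.61), or 4.02-fold, with an adjusted p of 0.00456. The later differences from control were 0.14, 0.10 and 0.12 in order of time, with adjusted p of 0.857, 0.931 and 0.950. In females alone the rise was 2.20, and the call ended (adjusted p = 0.0567).

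Nr4a2, or Nurr1, is known as a factor that dopamine neurons need to form and survive, and its rise was the smallest of the 3 in value. Its brightest probe set read 8.02, 8.14 and 8.51 in controls and 9.01, 8.97 and 8.91 immediately after noise. At 1 day it read 8.79, 8.73 and 8.35, at 7 days 8.45, 7.91 and 8.33, and at 14 days 8.13, 8.05 and 7.85. The immediate arrays were the 3 highest of the 15, with an SD of 0.05, and the arrays at 1 day overlapped the controls. The difference was 0.74 ± 0.15 (interval 0.42 to 1.06), or 1.67-fold (adjusted p = 0.0324), with rank 59 among rises. The later means were 0.40 ± 0.15 from control at 1 day (adjusted p = 0.166), 0.01 at 7 days (adjusted p = 0.992) and -0.21 ± 0.15 at 14 days (adjusted p = 0.771), none of them called.

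The Nr4a2 call lay close to the threshold. With sex as a term the difference was 0.69 (adjusted p = 0.0604), and in females alone 0.77 (adjusted p = 0.168). It was called in 10 of the 15 fits that left out an array, and not without control 1, control 2 or any single immediate array, where the adjusted p ran up to 0.129 and the difference over all 15 fits from 0.64 to 0.88. Nr4a1 and Nr4a3 were called in 15 of 15 such fits, with differences of 2.34 to 2.80 and 1.84 to 2.20.

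**Figure D3:**
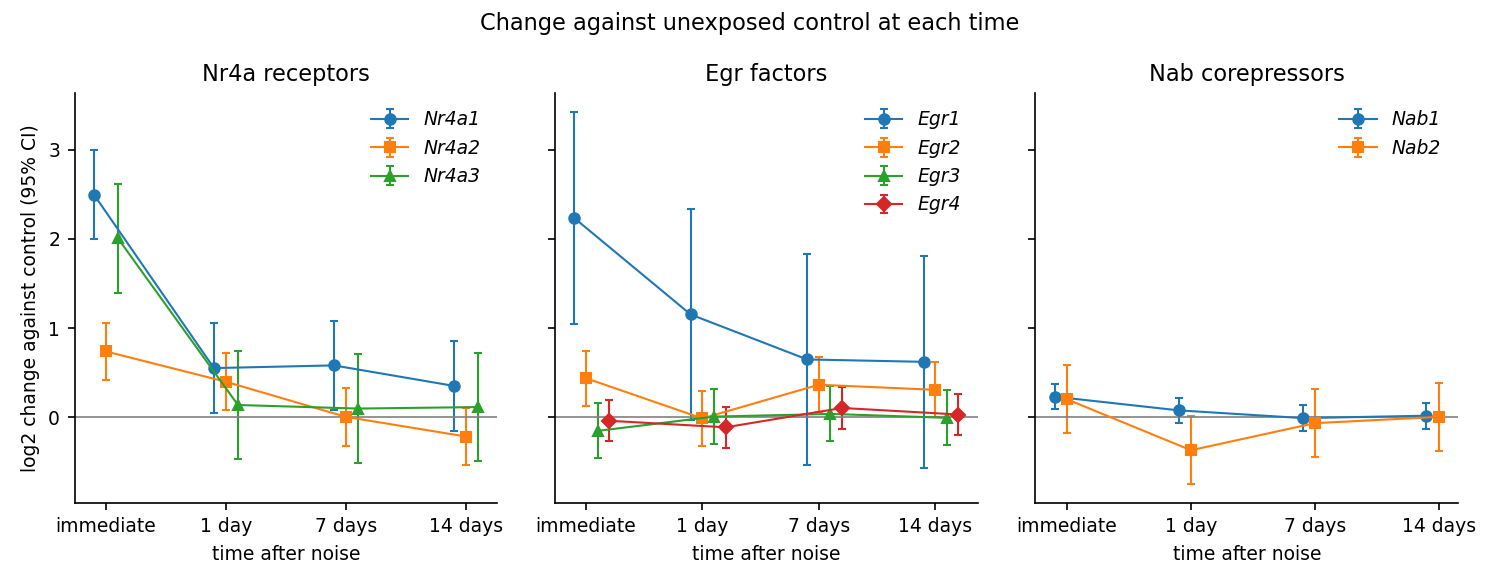
Log2 change against unexposed control at each time after noise for the Nr4a genes (left), the Egr genes (middle) and the Nab genes (right), as means with 95% confidence intervals from the limma fit. Nr4a1 and Nr4a3 start at 2.50 and 2.01 and lie at 0.55 and 0.14 at 1 day, and Egr1 starts at 2.23 with a wide interval. Egr3, by its brighter probe set, and Egr4 stay near 0.

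The 6 probe sets of Nr4a2 and the 3 of Nr4a3 did not move alike. In a fit of every probe set by itself, 3 of 6 for Nr4a2 were called, with differences of 0.74, 0.75 and 0.86 and adjusted p of 0.0300, 0.0274 and 0.0359, where 1.1% of all probe sets tested were called. Another lay at 0.47 ± 0.11 (adjusted p = 0.0535), and the pair of dimmest ones at 0.33 ± 0.16 and -0.07 ± 0.13, neither called. For Nr4a3 the brightest probe set carried the rise alone: a second one, at a mean level of 6.03, differed by 0.02 ± 0.12 (adjusted p = 0.951) and the third, at 3.21, lay under the probe set filter of 4.50. The second one read 6.03, 6.01 and 5.97 in controls and 5.83, 6.18 and 6.07 immediately after noise, so the groups overlapped. Averaged over its probe sets, the difference of Nr4a3 was 0.70 (adjusted p = 0.0164) and that of Nr4a2 0.51 (adjusted p = 0.0127). Nr4a1 had 1 probe set. Which transcript or exon each probe set reads was not analysed here.

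**Figure D4:**
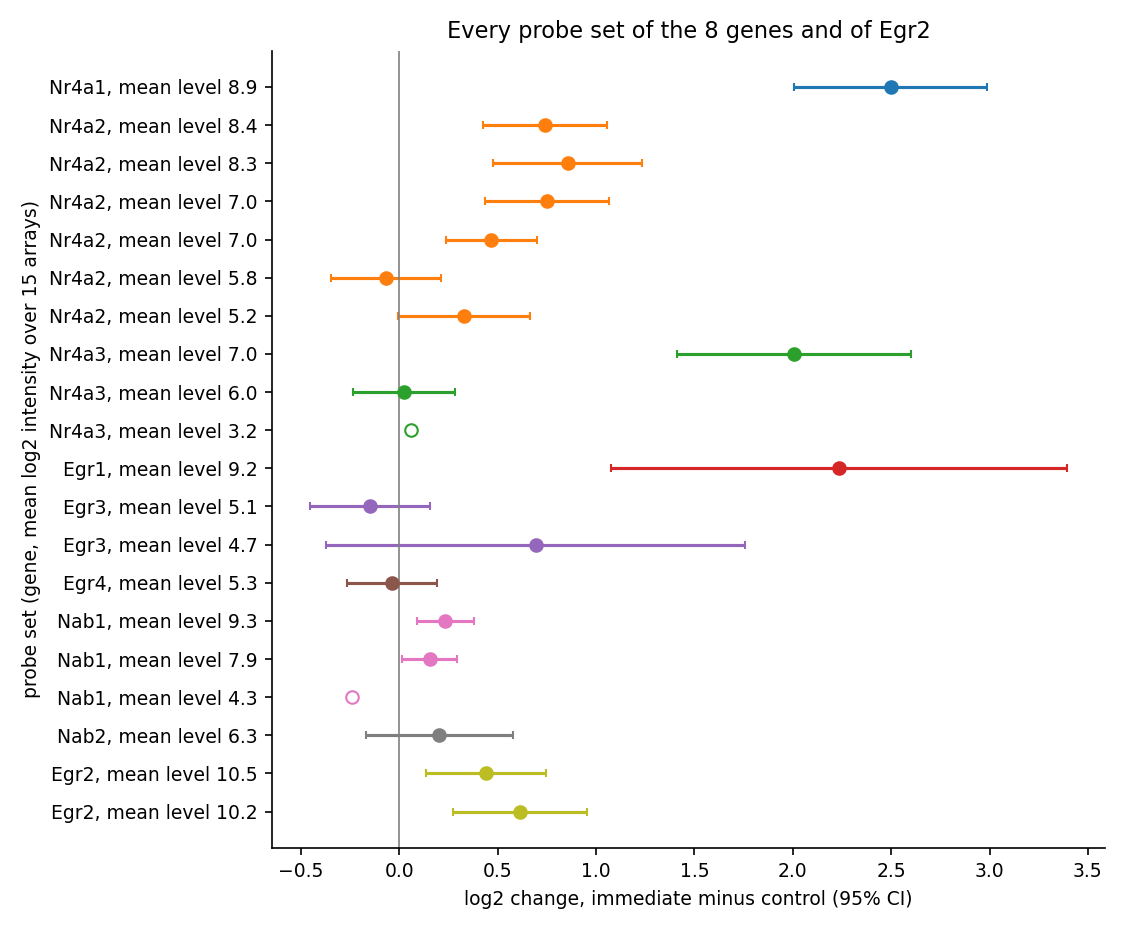
Log2 change immediately after noise against control for every probe set of the 8 genes and Egr2, with 95% confidence intervals; labels give the gene and the mean log2 intensity over 15 arrays, and open circles are probe sets under the filter, given without an interval. The 2 dimmest probe sets of Nr4a2 lie at -0.07 and 0.33 and those of Nr4a3 at 0.02 and 0.06, while the brighter ones of both genes lie at 0.47 to 2.01.

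Egr1, or Krox24, a growth factor and activity response gene, had an immediate mean above that of the controls, with a wide spread between animals, and the difference was not called. It read 7.65, 8.43 and 8.61 in controls and 10.70, 9.37 and 11.32 immediately after noise. At 1 day it read 8.72, 9.84 and 9.59, at 7 days 7.93, 8.91 and 9.80, and at 14 days 7.79, 9.11 and 9.66. Every immediate array, and every array at 1 day, lay above the highest control, while the 7-day and 14-day groups each held an array within the range of the controls and others above it. The immediate difference of 2.23 ± 0.56 (interval 1.05 to 3.42), or 4.70-fold, ranked 6 among rises but 217 by p, and it did not pass over all genes (adjusted p = 0.0718).

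The spread of Egr1 within groups, 0.82 on the log2 scale, exceeded that of 99.8% of genes tested, whose median was 0.118. By the same measure Nr4a3 stood at 0.41, above 98.4% of genes, and Nr4a1 at 0.34, above 97.3%. Nab1, with 0.0792, was steadier than most genes, as 19.9% lay below it. Without the second immediate array, the lowest of its group, the Egr1 difference was 2.78 and was called (adjusted p = 0.0472). Over all 15 fits that left out an array it ran from 1.81 to 2.78, with adjusted p up to 0.310.

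At 1 day Egr1 was 1.15 ± 0.56 above control (adjusted p = 0.293), though all 3 mice lay above all controls. At 7 and 14 days it was 0.65 and 0.62 above control, each ± 0.56 (adjusted p = 0.705 and 0.825), and the intervals ran from -0.54 to 1.84 and from -0.56 to 1.81. The male was the highest of the 3 mice in the immediate group and the lowest in the 7-day and 14-day groups. In those 2 later groups the male was replicate 1. Replicate 1 was also the lowest of the all-female controls (7.65) and of the all-male mice at 1 day (8.72). Whether sex or replicate number bears on this order was not tested.

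Egr3 and Egr4, which are activity response genes of neurons and muscle spindles (Egr3) and of neurons and germ cells (Egr4), were dimmer than most probe sets, with mean levels of 5.11 and 5.26 that 33.0% and 35.1% of probe sets did not exceed. Egr3 read 4.97, 5.32 and 5.10 in controls and 4.80, 5.09 and 5.05 immediately after noise, a difference of -0.15 ± 0.14 (interval -0.46 to 0.16; adjusted p = 0.672). The later differences of this probe set lay between -0.00 and 0.04. A second Egr3 probe set read 4.53, 4.36 and 5.58 in controls and 5.44, 4.50 and 6.61 immediately, which overlapped and gave 0.69 ± 0.50 (adjusted p = 0.535). The mean level of this second probe set, 4.70, lay just above the probe set filter of 4.50. Its spread within groups, 0.75, exceeded that of 99.7% of genes tested. At 1, 7 and 14 days it differed from control by -0.63, -0.18 and -0.48, each ± 0.50 and not called. From the immediate time to 1 day it differed by -1.33 ± 0.50 (adjusted p = 0.119). Egr4 read 5.26, 5.04 and 5.49 in controls and 5.22, 5.21 and 5.25 immediately, a difference of -0.04 ± 0.11 (interval -0.27 to 0.19; adjusted p = 0.911). For both genes the controls enclosed or overlapped the noise groups at all 4 times.

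Egr2, or Krox20, the Egr factor of myelinating Schwann cells, read 9.98, 10.57 and 10.32 in controls and 10.69, 10.66 and 10.84 immediately after noise. All 3 immediate arrays lay above all controls, but the difference of 0.44 ± 0.14 was not called (adjusted p = 0.162), nor was the 0.61 ± 0.16 of its second probe set (adjusted p = 0.0781). At 1 day it read 9.96, 10.37 and 10.51, which was -0.01 against control. At 7 days it read 10.49, 10.77 and 10.71 and at 14 days 10.56, 10.49 and 10.75, with differences of 0.37 and 0.31 (adjusted p = 0.378 and 0.636) and overlap with the controls. The second probe set read 9.80, 10 and 9.89 in controls, 10.04, 10.23 and 10.26 at 7 days and 10.18, 10.02 and 10.31 at 14 days, so there the groups did not overlap; its differences were 0.28 ± 0.16 and 0.27 ± 0.16 (adjusted p = 0.507 and 0.637), neither called.

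Of the corepressors, Nab1 read 9.26, 9.20 and 9.16 in controls and 9.34, 9.45 and 9.53 immediately after noise. The groups did not overlap, yet the difference was small, at 0.23 ± 0.07 (interval 0.09 to 0.38; adjusted p = 0.115). A second Nab1 probe set, 7.74, 7.89 and 7.69 against 7.95, 7.93 and 7.90, also did not overlap and differed by 0.15 ± 0.07 (adjusted p = 0.264). The third lay under the filter and differed by -0.24. At 1, 7 and 14 days Nab1 differed from control by 0.08, -0.01 and 0.02.

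Nab2, itself known as a gene that Egr1 induces, read 6.64, 6.04 and 6.24 in controls, 6.48, 6.46 and 6.59 immediately, and 6.38, 5.73 and 5.71 at 1 day. It differed from control by 0.20 ± 0.18 immediately (adjusted p = 0.639) and by -0.37 ± 0.18 at 1 day (adjusted p = 0.300), with overlap both times. At 7 days it read 6.48, 5.99 and 6.26 and at 14 days 6.33, 6.28 and 6.33, which lay -0.06 and 0.01 from control.

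One day after noise none of the 8 genes was called against control, where 3.18% of all genes tested were, and 2 had an unadjusted p under 0.05, Nr4a1 and Nr4a2. Only Egr1 had groups that did not overlap, all higher, which held for 10.1% of all genes. At 7 days 0 of 8 were called (0.022% of all genes), with 1 at an unadjusted p under 0.05, and at 14 days 0 of 8 (0% of all genes), with 0 at that level. At 7 days Nr4a1 alone of the 8 had all mice above all controls, a pattern shared by 8.19% of all genes.

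From the immediate time to 1 day, 2 of the 8 genes fell, Nr4a1 and Nr4a3, where 4.38% of all genes were called lower and 8.39% in either direction. Nr4a1 fell by 1.94 ± 0.23 (adjusted p = 0.000497). Nr4a3 fell by 1.87 ± 0.28 (adjusted p = 0.00216). For 4 of the 8, these and Nr4a2 and Nab2, every mouse at 1 day lay below every mouse of the immediate group, as for 14% of all genes. Nr4a2 differed by -0.34 ± 0.15 (adjusted p = 0.178). Nab2 differed by -0.57 ± 0.18 (adjusted p = 0.0612), and without the first mouse at 1 day by -0.79 (adjusted p = 0.0140) and without the first control called as well (adjusted p = 0.0461). Egr1 overlapped, with -1.08 ± 0.56 (adjusted p = 0.252).

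Between 1 and 7 days none of the 8 was called, against 9.35% of all genes, with 1 unadjusted p under 0.05, that of Nr4a2 (-0.39 ± 0.15, adjusted p = 0.113). Between 7 and 14 days 0 of 8 genes and 0% of all genes were called, with 0 of the 8 at an unadjusted p under 0.05.

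Markers of other cells were read beside these results as the log2 of summed linear intensities. Immediately after noise, none of the 51 marker genes tested in 10 lists was called. An unadjusted p under 0.05 was seen for 9, a level for which the share over all genes is not given. The summed level of 8 neuronal genes was 15.16 to 15.23 in controls and 15.24 to 15.26 immediately. That of 5 of 8 listed Schwann cell genes was 14.23 to 14.26 and 14.15 to 14.20, so neither sum overlapped between the groups. Such a sum mostly follows the brightest genes, for Schwann cells Pmp22 (mean 13.28) and S100b (12.45). In that list Sox10 differed by 0.52 ± 0.16, against a median difference of -0.12 for the 5 genes. The 8 macrophage genes summed to 11.01 to 11.21 in controls and 10.79 to 11.16 immediately. At 1 day the macrophage sum was 11.76 to 11.91, the neuronal sum 15.02 to 15.09 and the Schwann cell sum 14.06 to 14.14. Against control, 6 of 8 macrophage genes were called higher, where 3.18% of all genes tested were called in either direction. Called lower were 2 of 5 Schwann cell genes, 2 of 5 bone genes and 1 of 2 tested muscle genes. The other lists, neurons among them, held no call at that time. Bone genes, 5 of 6 measured, summed to 11.95 to 12.79 in controls and 11.10 to 11.58 at 1 day. The part of these shifts in the Nr4a and Egr values was not tested.

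Among 12 tested of 16 listed regulators that act upstream on CREB or serum response factor, 1 rose immediately after noise, where 0.579% of all genes did, and the median difference of the 12 was 0.02. That gene was Crem, a CREB family gene that also makes an inducible repressor. Crem read 6.49, 6.28 and 6.48 in controls, 7.12, 6.96 and 7.43 immediately and 6.27, 6.24 and 6.22 at 1 day, so that the immediate arrays stood apart. It rose by 0.75 ± 0.11 (adjusted p = 0.00481) and then fell by 0.93 ± 0.11 to 1 day (adjusted p = 0.000497). Creb1 differed by 0.32 ± 0.14 (adjusted p = 0.278) and Srf by 0.23 ± 0.11 (adjusted p = 0.355). Rps6ka3, a kinase that phosphorylates CREB, fell by 0.30 ± 0.07 from the immediate time to 1 day (adjusted p = 0.0246), 1 of 2 such falls among the 12 beside Crem, where 4.38% of all genes were called lower. Without immediate array 2 or 3, or without any single array at 1 day, 1 of the list was called. Crem was not called in females alone, and was not among the genes kept with the dimmest 50% left out.

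None of the 3 retinoid X receptor genes, partners of Nr4a1 and Nr4a2, was called immediately after noise, and 0 had an unadjusted p under 0.05. Rxrg read 7.12, 7.19 and 7.20 in controls, 7.30, 7.14 and 7.19 immediately and 6.63, 6.75 and 6.88 at 1 day. It fell by 0.46 ± 0.12 from the immediate time to 1 day (adjusted p = 0.0280), a call that ended, with 0 of 3 called, without immediate array 1 or 3 or without array 1 or 2 at 1 day.

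Of 16 genes reported as targets of Egr or Nr4a factors in other systems, 12 were tested and 0 were called against control at any of the 4 times, with medians of -0.02, -0.17, -0.08 and -0.10 in order of time. At an unadjusted p under 0.05 there were 2, 4, 1 and 2. The tested targets with the lowest p immediately after noise, singled out after their values were seen, were the vascular growth factor gene Vegfa (0.31 ± 0.11, adjusted p = 0.188) and the hyaluronan receptor gene Cd44 (-0.25 ± 0.09, adjusted p = 0.218). Arc, a neuronal activity gene, lay under the filter, as did Tgfb1, Slc6a3 and Fabp4. Between 1 and 7 days 2 of the 12 were called, where 9.35% of all genes were. Ngfr, the low-affinity neurotrophin receptor of Schwann cells, rose by 0.43 ± 0.12 (adjusted p = 0.0336) and Cd44 fell by 0.46 ± 0.09 (adjusted p = 0.00947). Ngfr read 7.66, 7.33 and 7.35 at 1 day and 8.09, 7.87 and 7.66 at 7 days, which touch at 7.66. Cd44 read 8.32, 8.58 and 8.37 at 1 day and 7.97, 7.92 and 8.00 at 7 days, with no overlap. With sex as a term 1 of the 12 was called between these times, and leaving out single arrays gave 0, without the second mouse at 1 day, to 4.

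Of 8 genes that work with Egr2 in Schwann cells, 6 were tested and 0 were called against control immediately after noise, 4 of them with an unadjusted p under 0.05, and the median difference was 0.29. Sox10, the master factor of the lineage, read 9.72, 9.63 and 9.59 in controls and 10.29, 9.88 and 10.34 immediately, with no overlap and a difference of 0.52 ± 0.16 (adjusted p = 0.143). Pou3f1, or Oct6, differed by 0.41 ± 0.16 (adjusted p = 0.241) and the gap junction gene Gjb1 by 0.42 ± 0.14 (adjusted p = 0.161), while the myelin gene Pmp22 differed by -0.12 ± 0.04 (adjusted p = 0.153). From 1 to 7 days 2 of the 6 rose, Gjb1 by 0.55 ± 0.14 (adjusted p = 0.0237) and Pou3f2, or Brn2, by 0.35 ± 0.11 (adjusted p = 0.0485), where 5.13% of all genes were called higher. With sex as a term 0 of 6 were called, and likewise without array 1 or 2 at 1 day or array 2 or 3 at 7 days.

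The tested genes whose pattern over the 15 arrays was most like that of Nr4a1 were Dio2 (Pearson r = 0.93), Irs2 (0.92), Junb (0.92), Cebpb (0.91) and Btg2 (0.91), by correlation of log2 values. The 3 immediate arrays lie far from the rest and weigh heavily in these values. Over the 12 arrays outside that group, a choice made after seeing the data, the r with Nr4a1 was 0.33 for Dio2 and 0.43 for Irs2, but 0.76 for Junb and 0.84 for Btg2. Dio2 read 6.62 to 7.40 in controls, 9.09 to 9.64 immediately and 6.56 to 7.27 at the later times, so outside the immediate group it stayed within the range of the controls or just below it. The other genes of the group followed Nr4a1 less closely: r over the 15 arrays was 0.86 for Nr4a3, 0.81 for Egr1, 0.75 for Nr4a2, 0.68 for Nab1, 0.28 for Nab2, -0.09 for Egr4 and -0.42 for Egr3, and Egr2 gave 0.54.

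Egr1 was most like Dusp6 (r = 0.96), Fos (0.94), Zswim6 (0.92), Sfpq (0.91) and Ier2 (0.90). Over the 12 arrays outside the immediate group, which are among those that chose these genes, r was 0.90 for Dusp6 and 0.90 for Fos. Dusp6, the phosphatase that switches off ERK kinases, read 8.00, 8.25 and 8.96 at 7 days and 8.23, 8.48 and 8.82 at 14 days. Fos, an AP-1 subunit, read 7.18, 7.79 and 8.87 at 7 days and 7.12, 7.67 and 8.51 at 14 days. Egr1, Dusp6 and Fos put the 3 mice of each of these groups in the same order; as Dusp6 and Fos were chosen for their likeness over arrays that include these, that order supports nothing further. Among the 8 genes Egr1 was most like Nr4a1, and its r with Nr4a3 was 0.49 over 15 arrays and -0.23 over the 12. These correlations describe 15 arrays that share groups, tissue and processing.

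**Figure D5:**
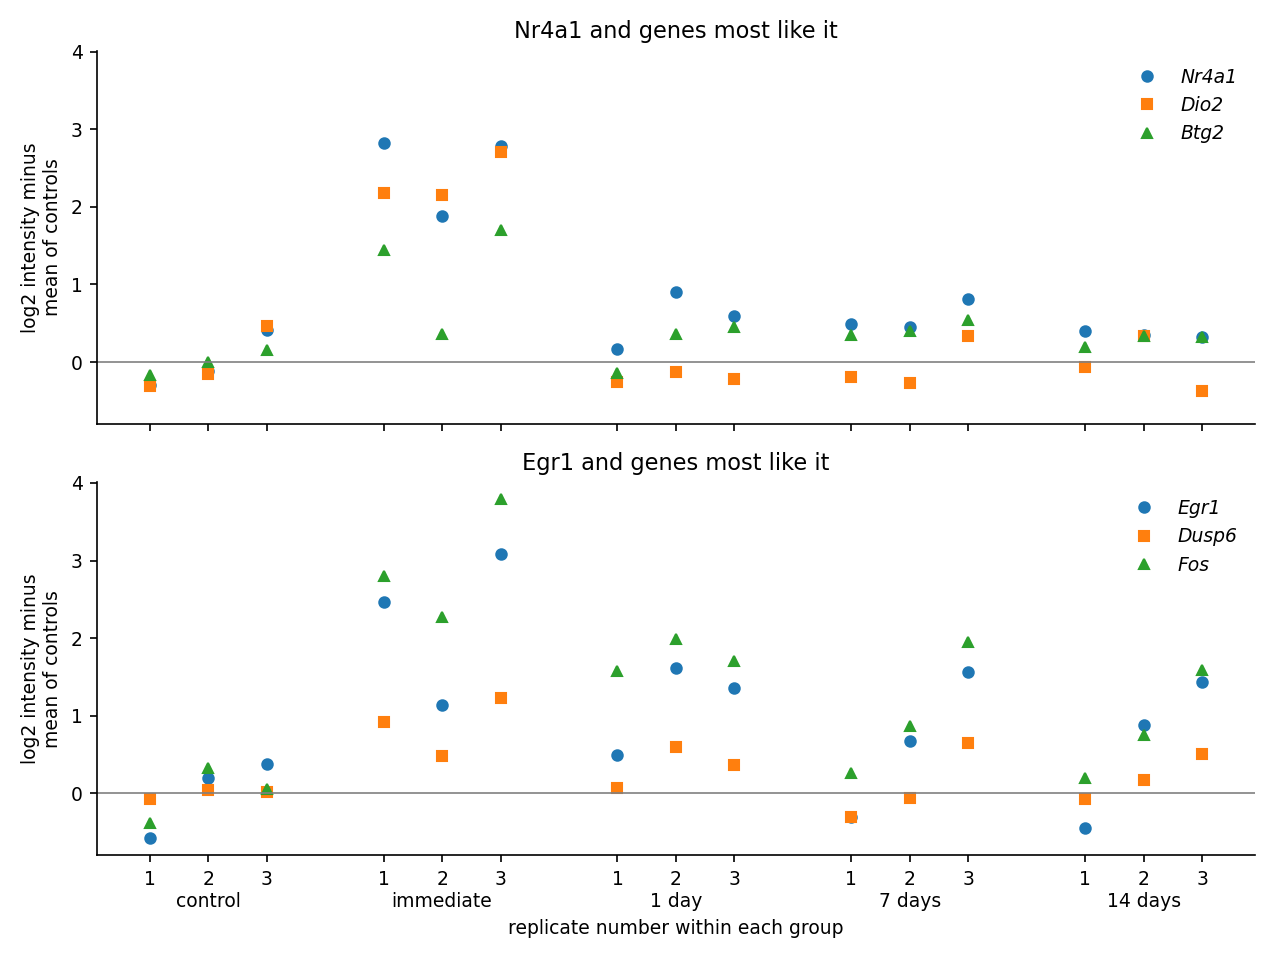
Log2 intensity minus the control mean on each of 15 arrays, by group and by the replicate number that names each animal. Shown are Nr4a1 with Dio2 and Btg2 (top) and Egr1 with Dusp6 and Fos (bottom). Dio2 leaves the control level in the immediate group, while Egr1, Dusp6 and Fos put the mice of the 7-day and of the 14-day group in the same order.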

How the data were processed

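The deposited series matrix values, 45101 probe sets on 15 arrays, were used as log2 intensities as the authors gave them. Affymetrix Expression Console, RMA and MAS5 are named in the submitters' processing notes; which of them gave these values was not given in the sources used here. Gene names came from the platform annotation, in which 34945 probe sets have 1 gene, 932 several and 9160 none, beside 64 controls. Each gene was read by its brightest probe set on average, the lowest 25% of genes were left out, and limma 3.58.1 in R 4.3.3 (lmFit, eBayes with trend) fitted all 5 groups together, with 10 residual degrees of freedom and two-sided tests in 7 contrasts, adjusted over 13644 genes. Every probe set was also fitted by itself (26207 tested). The functions were tested on simulated data. The number of arrays limits the precision, and errors are standard errors of the fit unless marked SD. At most 3.67% of values were identical between any 2 arrays.

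The genes and lists were chosen with earlier results of these data known. Named were the 8 genes and Egr2, the members of 4 pathway lists called in any contrast, and the 5 genes most correlated with Nr4a1 and with Egr1; other genes were named after their values were seen. Mkl1 and Mkl2 were matched as Mrtfa and Mrtfb. Some listed genes were not analysed here and are not reported. Alternatives were other filters and probe set rules, no trend, a sex term, females alone, a replicate block, other normalizations, the compared groups alone, and each array left out.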

Additional observations from a re-analysis of the deposited data

Results flagged for a closer look

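The changes of Nr4a1 and Nr4a3 differed between times under the same contrast with control. The change of Nr4a1 at 1 day minus its change immediately after noise was -1.94 ± 0.23 (limma adjusted p = 0.000497). For Nr4a3 the same difference was -1.87 ± 0.28 (adjusted p = 0.00216). As the control is shared, these are the contrasts of 1 day against the immediate time given above, and not further tests. All 3 mice at 1 day lay below all 3 immediate mice for both genes. The mice at 1 day were all male and the immediate group held 2 females and 1 male; with sex as a term the differences were -2.03 for Nr4a1 (adjusted p = 0.00302) and -1.93 for Nr4a3 (adjusted p = 0.00817).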

How the results depend on the processing

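Alternatives were read for 19 contrasts of the 8 genes and Egr2, those with an unadjusted p under 0.05, and none reversed. That choice makes a reversal unlikely. Most of the 19 were not called in the main fit, so keeping the side of the threshold often meant staying uncalled. Of 464 values under alternatives, 447 kept their direction and side of the threshold, 9 passed it newly and 8 lost it. The 8 were 5 leave-one-out values, the sex-term value of Nr4a2, and the values in females alone of Nr4a2 and Nr4a3, which left 1 of the 8 genes called immediately after noise.
Genes called against control immediately after noise were 127, and 246 with every probe set by itself, 79 with a sex term and 8 in females alone. At 1 day they were 434, and 75 with a sex term. At 7 days they were 3, and 7 with the lowest 50% left out, 16 with every probe set and 1 with the compared groups alone. From immediate to 1 day 1145 became 652 with a sex term; from 1 to 7 days 1276 became 449 with a sex term and 200 with the compared groups alone. Leaving out single arrays gave 29 to 171 immediately, 112 to 582 at 1 day, 2 to 50 at 7 days, 0 to 1 at 14 days, 382 to 1311 from immediate to 1 day, 429 to 1329 from 1 to 7 days and 0 to 1 from 7 to 14 days. Of the 8 genes, 2 to 3 were called immediately and 2 to 3 from immediate to 1 day, and 0 in the other contrasts. Where not shown by fewer samples, the cause was not tested.
Replicate numbers were not used as pairs in the main fit. Deviations of same-numbered arrays correlated at -0.33 to 0.30 (median 0.06, 30 pairs). Those of differently numbered arrays correlated at -0.49 to 0.37 (median -0.03, 60 pairs), and 7 of 15 arrays were most like one of their own number. Whether same-numbered arrays share a source of variation was not tested. With the replicate block the adjusted p of Egr1 immediately after noise was 0.0209, and that of Nab2 and Egr2 from immediate to 1 day was 0.0228 and 0.0229; that of Egr2 from 1 to 7 days was 0.0436. Other calls for the 8 genes kept their side of the threshold under the block.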
